A study of Mus musculus with 10 samples.

Results

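Glutathione, the enzymes that conjugate foreign and endogenous compounds, and the enzymes that remove peroxide and superoxide were followed as 83 genes of the 21792 with deposited values in mouse kidney cortex. The genes were chosen by symbol, as cytosolic and microsomal glutathione S-transferases (Gsta, Gstk, Gstm, Gsto, Gstp, Gstt, Mgst), UDP-glucuronosyltransferases (Ugt), sulfotransferases (Sult), glutathione peroxidases (Gpx), peroxiredoxins (Prdx), thioredoxin reductases (Txnrd), superoxide dismutases (Sod1, Sod2, Sod3), and Gclc, Gclm, Gss, Gsr, Srxn1, Ggt1, Nat8, Nfe2l2, Keap1 and Bach1. No measured value is part of that rule, and some genes of the sulfotransferase and glutathione peroxidase families are left out by it and not analysed here, so counts and orders within a family cover only the genes followed. The study compared wild-type mice with aristolochic acid nephropathy (AAN, 6 mice), which had received aristolochic acid at 5 mg/kg as a single dose into the peritoneum, with wild-type sham mice given PBS (4 mice). Kidneys of both groups were taken at day 28, and each mouse has its own library of the cortex, with no pooling. The study's methods describe the AAN model in male C57BL/6 mice aged 8 weeks, which the labels of the sequenced mice do not repeat. The whole cortex was used and not a sorted cell type, and 1 time point and 1 dose were sequenced. Aristolochic acid is a plant nitroarene that is reduced in cells to species that bind DNA, and it injures the proximal tubule of the kidney above all.

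Glutathione is a tripeptide that is made in 2 steps, by glutamate-cysteine ligase (a catalytic subunit from Gclc and a modifier from Gclm) and glutathione synthetase (Gss), is kept reduced by glutathione reductase (Gsr), and is broken down at the brush border by gamma-glutamyltransferase (Ggt1). Glutathione S-transferases couple it to electrophiles, UDP-glucuronosyltransferases and sulfotransferases add glucuronic acid or sulfate instead, and peroxidases, peroxiredoxins and dismutases clear reactive oxygen. Many of these genes are induced by NRF2, the product of Nfe2l2, which KEAP1 holds back and with which BACH1 competes for the same DNA element. In the kidney the proximal tubule is known as a main site of all of this chemistry.

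The values are FPKM (fragments per kilobase of gene model, scaled to the fragments of the library), as the authors computed them, at a depth of 13.4 to 17.5 M fragments per mouse. Groups were compared with limma on log2(FPKM + 0.1), and a gene is said to be called where its two-sided adjusted p was at most 0.05 and its change at least 2-fold. FPKM are shares of a library, and the libraries differed in make-up: mitochondrial genes made up 39.5 to 61.4% of a sham library and 21.4 to 55.0% of an AAN library by FPKM, and the median log2 fold change of all 17129 genes tested was 0.75, with 82.3% of them above 0. Rescaling the mice by the median of ratios moved that median to 0.06, so differing calls are given on both scales, by gene for the genes described and by count for the rest. The levels of cell type markers also shifted. The summed level of 10 proximal tubule markers was 2613 to 4816 FPKM in sham and 766 to 2448 FPKM in AAN mice (7 of 10 called lower and 0 higher), and that of 5 markers of its S3 segment 1097 to 1384 against 108 to 245 FPKM (4 of 5 lower). Those of 7 macrophage markers (37.9 to 60.7 against 619 to 2146 FPKM), 6 leukocyte markers (7.65 to 14.0 against 138 to 419), 7 fibroblast markers (16.2 to 22.2 against 116 to 263) and 6 injured tubule markers (1.58 to 2.20 against 114 to 334) were called higher to the last gene, and no marker of these 6 lists was at 0 in all mice. The part of these shifts in the results was not tested, and fewer cells of a type and less RNA per cell cannot be told apart in whole cortex.

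Members called higher numbered 13 of the 74 tested (17.6%), against 35.8% of all genes tested, and members called lower numbered 15 (20.3%), against 3.43% of all genes. Of the remaining members 46 were not called and 9, all close to 0, fell under the limit of a mean of 0.1 FPKM (Gstt4, Ugt2b1, Ugt2b35, Sult1e1, Sult2a3, Sult2a4, Sult6b2, Gpx5 and Prdx6b). Their median log2 fold change was -0.19, and 58 of 74 lay below the median of all genes. After the median of ratios, 6 members were called higher (all genes 19.0%) and 31 lower (all genes 10.5%), with a median of -0.93. All 6 AAN mice were above all 4 sham mice for 12 members (all genes 40.3%), and below them for 10 members (all genes 3.25%). The 34 members with a mean of at least 20 FPKM held 2 higher and 8 lower calls, where all 1971 genes of that level had 20.8% higher and 11.6% lower. After the median of ratios these members held 0 higher and 19 lower calls (55.9% lower). All genes of that level then had 10.9% higher and 30.6% lower, so the 10.5% is a low yardstick for abundant members. Among the 33 members at 1 to 20 FPKM, 9 were higher and 7 lower, where all genes of that level had 35.1% and 2.53%. The median of ratios gave 5 higher and 12 lower there, where all genes of that level had 16.6% and 9.01%. Members at 20 FPKM or more were therefore mostly not called or lower. In 4 tested members (Gstp3, Mgst2, Ugt1a9 and Sult4a1) the sham mean alone was under the limit of 0.1 FPKM, so that they entered only through the AAN mice and could hardly be called lower, and 3 of them are among the 13 higher calls. Ugt1a5 among the higher and Ugt1a1, Ugt1a7c and Ugt1a10 among the lower calls belong to 1 locus, and the split of fragments among them is uncertain. The summed level of all members was 5911 to 23064 FPKM in sham and 3260 to 15127 FPKM in AAN mice, with an overlap. Without Gpx3, the most abundant member, the sum was 4442 to 5822 FPKM in sham and 2567 to 3676 FPKM in AAN mice, and the groups did not overlap. Such sums are set mostly by the most abundant genes.

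**Figure D1:**
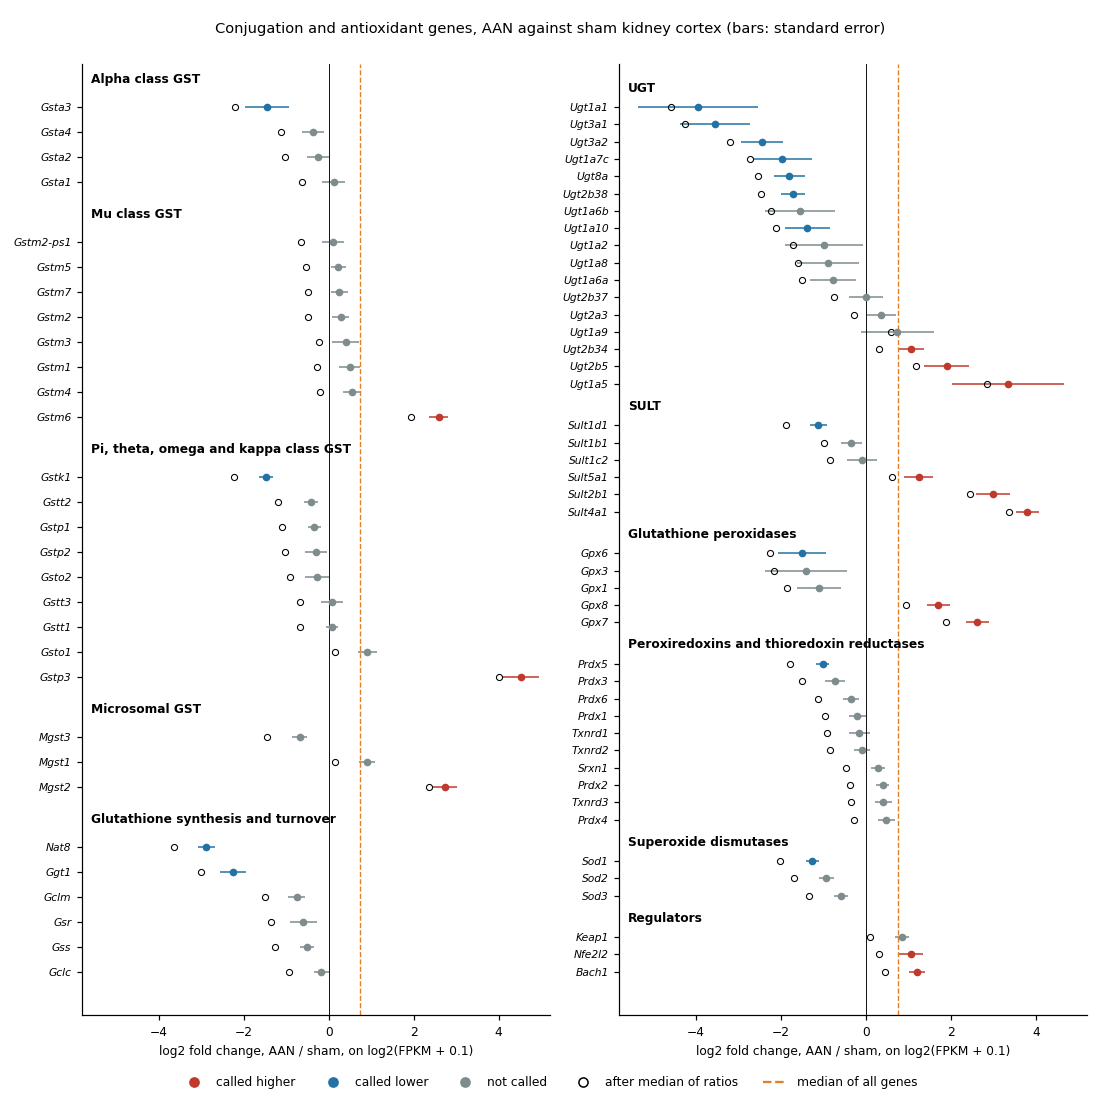
Log2 fold change, AAN over sham, of the 74 tested genes on log2(FPKM + 0.1), grouped by role, with standard error bars from limma. Filled points are FPKM as deposited, open circles the values after the median of ratios, and the dashed line the median of all genes, 0.75; 58 of the 74 filled points lie to its left.

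**Figure D2:**
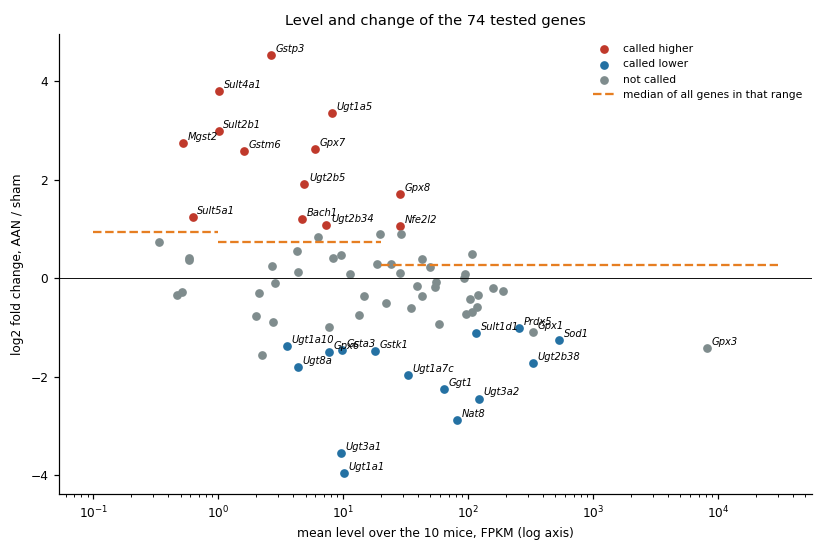
Mean level over the 10 mice (FPKM, log axis) against the log2 fold change of the 74 tested genes, with called genes, Gpx1 and Gpx3 named. Dashed lines give the median of all genes in the same range of levels (0.94 under 1 FPKM, 0.74 at 1 to 20 FPKM and 0.26 from 20 FPKM), and 2 members are called higher and 8 lower from 20 FPKM upwards.

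The 3 regulators were all at higher FPKM in AAN mice. Nfe2l2, which encodes the activator NRF2, was at 26.7, 10.9, 12.9 and 19.7 FPKM in the sham mice B607, B634, B636 and H249, an order kept below, and at 21.9, 40.7 and 44.3 FPKM (lowest, median and highest) in AAN mice. Its groups overlapped only because the sham mouse B607 lay within the AAN range (log2 fold change 1.06, standard error 0.29, adjusted p = 0.00810, limma). Bach1, which encodes the repressor, was at 3.90, 2.23, 2.26 and 2.24 FPKM in sham and 4.98, 6.13 and 7.19 FPKM in AAN mice. All AAN mice were above all sham mice (log2 fold change 1.20, standard error 0.19, adjusted p = 2.27e-04). Keap1, whose product marks NRF2 for degradation, was at 5.80, 3.57, 3.58 and 4.13 against 6.21, 7.85 and 8.29 FPKM. These groups did not overlap either, at a change under 2-fold (log2 fold change 0.85, standard error 0.17, adjusted p = 0.00113) that reached the limit without B607, the highest sham mouse. Keap1 shares 4.58% of its exonic 100-base windows with the overlapping gene Gm16754. Set against the median of all genes, the differences were 0.31 for Nfe2l2, 0.45 for Bach1 and 0.10 for Keap1 on the log2 scale, and after the median of ratios none of the 3 was called (0.30, 0.45 and 0.10). The ratio of Nfe2l2 to Keap1 within a mouse, which no rescaling can move, was 3.06 to 4.76 in sham and 3.08 to 5.81 in AAN mice, and the ratio to Bach1 4.90 to 8.79 and 4.15 to 7.96, so both overlapped between the groups. The call of Nfe2l2 also rested on single mice: it fell under the 2-fold limit without A483, without B614 (0.99) or without B666, and likewise without B634 (0.86) or without B636.

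NRF2 acts through the antioxidant response element (ARE), here searched as TGACNNNGC on both strands of the 250 bases upstream of each RefSeq start of a gene (GRCm38.p6). A gene with several starts has several windows, and a match in any of them was counted. A window was found for 72 of the 83 members, and 10 of them (13.9%) held the letters, against 11.5% of all 27025 genes with a window. The match was present in 1 of 12 members called higher, 3 of 14 called lower and 6 of 38 not called. The stretches below show the match, in capitals, with 25 bases on either side, as read along the gene's strand; they are the 6 that lie outside any annotated exon, from a subunit of glutamate-cysteine ligase (Gclm, chr3:122245398-122245456, plus strand, 134 bases before the start), peroxiredoxin 1 (Prdx1, chr4:116685441-116685499, plus strand, 133 bases), thioredoxin reductase 1 (Txnrd1, chr10:82859089-82859147, plus strand, 92 bases), an alpha class transferase (Gsta3, chr1:21240439-21240497, plus strand, 121 bases), superoxide dismutase 1 (Sod1, chr16:90220681-90220739, plus strand, 56 bases) and gamma-glutamyltransferase (Ggt1, chr10:75571452-75571510, plus strand, 83 bases).
Gclm: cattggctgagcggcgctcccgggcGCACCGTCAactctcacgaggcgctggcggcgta
Prdx1: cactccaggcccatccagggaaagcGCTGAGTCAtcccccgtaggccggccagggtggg
Txnrd1: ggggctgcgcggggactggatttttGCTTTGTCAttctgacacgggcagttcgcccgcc
Gsta3: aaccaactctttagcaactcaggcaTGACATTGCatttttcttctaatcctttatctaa
Sod1: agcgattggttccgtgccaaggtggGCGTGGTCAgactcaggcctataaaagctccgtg
Ggt1: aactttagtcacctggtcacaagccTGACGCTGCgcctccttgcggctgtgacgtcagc
The stretches of Txnrd1 and Ggt1 lie inside the annotated gene, so their distances are to an alternative start. Of these 6 genes, Gsta3, Sod1 and Ggt1 were called lower and the other 3 were not called. A match is a description of the letters and says nothing on binding.

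Gclm and Gclc, the paired subunits of the enzyme that limits glutathione synthesis, differed in their values. Gclm was at 21.6, 13.3, 14.8 and 22.1 FPKM in sham and 8.49, 9.80 and 13.8 FPKM in AAN mice. The highest AAN mouse, B614, stood above the lowest sham mouse, and the difference was under 2-fold (log2 fold change -0.75, standard error 0.20, adjusted p = 0.00651). Gclc was at 61.4, 54.8, 51.4 and 64.6 against 38.4, 49.1 and 69.2 FPKM. Its groups overlapped widely (log2 fold change -0.18, standard error 0.18, adjusted p = 0.409). After the median of ratios Gclm was called lower (-1.51) and Gclc was not (-0.94). The ratio of Gclc to Gclm was 2.85 to 4.13 in sham and 3.78 to 6.62 in AAN mice, with an overlap. Gss, the second enzyme of the synthesis, averaged 26.8 ± 4.64 FPKM in the sham group (SD, n = 4) and 18.9 ± 3.63 in the AAN group (SD, n = 6), a log2 fold change of -0.51, and Gsr, which regenerates reduced glutathione, averaged 44.3 ± 18.1 and 29.2 ± 10.5 FPKM (log2 fold change -0.60). Neither was called as deposited and both were called lower after the median of ratios. Gss overlaps 3 other listed genes (Acss2, Gssos1 and Gssos2), and fragments shared with them cannot be assigned here since strand use is not stated.

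The ratio to Nfe2l2 within a mouse was lower in every AAN mouse than in any sham mouse for 30 of the 71 tested members other than the regulators (42.3%), against 15.6% of all genes, and higher for 4 (5.63%, against 12.8%). Of 18 other listed NRF2 targets and NADPH suppliers, 6 were below and 5 above. The shares of all genes cover genes of every level and were not matched to the level of the members. Gclm, Gsr and Txnrd1 are shown as examples of the members below. Gclm over Nfe2l2 was 0.807, 1.22, 1.14 and 1.12 in the sham mice and 0.218, 0.294 and 0.423 in AAN mice. Gsr over Nfe2l2 was 2.57, 2.61, 2.56 and 2.37 against 0.629, 0.793 and 1.03, and Txnrd1 over Nfe2l2 2.30, 2.91, 2.42 and 2.15 against 0.785, 1.03 and 1.28. In all 3 the highest AAN mouse lay below the lowest sham mouse, and no rescaling of a library alters them. By contrast, the ratios of Gclc, Srxn1 and Gsta2 to Nfe2l2 overlapped between the groups. All these ratios were chosen with results of these data known and carry no test.

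**Figure D3:**
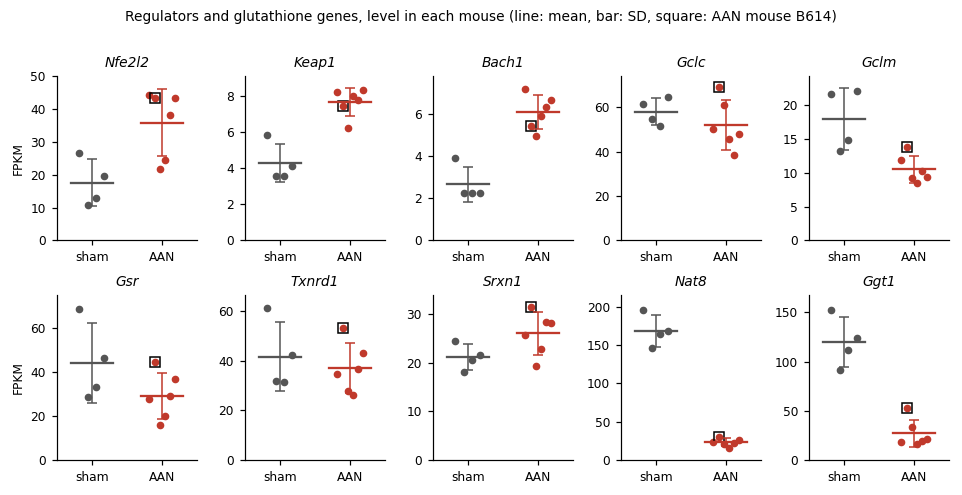
FPKM of the 3 regulators and 7 genes of glutathione, thioredoxin and sulfiredoxin in each of the 4 sham and 6 AAN mice, with the mean and SD, and squares around AAN mouse B614. Nat8 and Ggt1 do not overlap between the groups (AAN at most 30.6 and 52.8 FPKM), whereas Gclc, Gclm, Gsr, Txnrd1 and Srxn1 do.

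**Figure D4:**
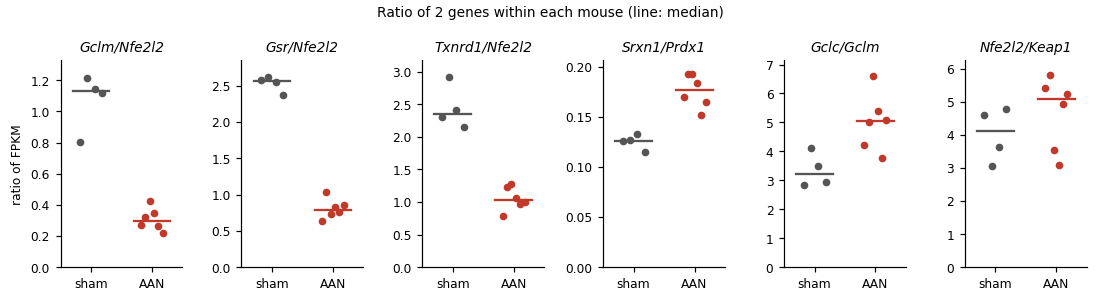
Ratio of the FPKM of 2 genes within each mouse, 4 sham and 6 AAN, with the median as a line. Gclm, Gsr and Txnrd1 over Nfe2l2 are lower in every AAN mouse than in any sham mouse, Srxn1 over Prdx1 is higher (0.151 to 0.193 against 0.115 to 0.132), and the other 2 ratios overlap.

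The turnover genes of the brush border and of mercapturate formation fell most within the glutathione group. Nat8, whose product acetylates cysteine conjugates to mercapturic acids, was at 196, 146, 164 and 169 FPKM in sham and 15.3, 22.9 and 30.6 FPKM in AAN mice. The lowest sham mouse was above the highest AAN mouse by a wide gap (log2 fold change -2.88, standard error 0.19, adjusted p = 3.36e-07). Ggt1, which begins the breakdown of extracellular glutathione and of its conjugates, was at 152, 91.1, 112 and 124 against 16.8, 20.5 and 52.8 FPKM. Again no AAN mouse reached the sham range, with B614 the highest of them (log2 fold change -2.25, standard error 0.31, adjusted p = 7.16e-05). Both calls held with each mouse left out in turn. Of 20 other genes of glutathione breakdown and mercapturate formation, 4 were called higher and 6 lower (all genes 35.8% and 3.43%). Their median log2 fold change was -0.47, and after the median of ratios 2 were called higher and 12 lower (all genes 19.0% and 10.5%). The most abundant, Acy3, an aminoacylase that is also on the S3 marker list, fell from 1047 ± 96.5 FPKM (SD, n = 4) in sham to 137 ± 48.6 (SD, n = 6) in AAN mice, the largest decrease on the list (-2.99), and Slc3a1, the cystine transporter subunit, was called lower only after the median of ratios (-0.85 as deposited, -1.61 after it). Dpep2, a dipeptidase, rose most (4.09), from 0.0341 ± 0.0184 to 2.29 ± 0.769 FPKM.

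Among the alpha class glutathione S-transferases, 1 of 4 genes was called lower and 0 higher (all genes 3.43% and 35.8%). After the median of ratios 3 were called lower (all genes 10.5%). Gsta2, the most abundant, was at 133, 198, 231 and 284 FPKM in sham and 107, 174 and 226 FPKM in AAN mice. Its groups overlapped and it was not called as deposited (log2 fold change -0.26, standard error 0.26, adjusted p = 0.395). Of its exonic 100-base windows 28.4% are shared with other genes, mostly Gsta1, so their split is uncertain, and the sum of both was 137 to 289 in sham against 110.2 to 232 FPKM in AAN mice. Gsta1 alone was not called (0.12). Gsta4, which handles products of lipid peroxidation, was at 38.5, 41.5, 39.5 and 79.5 against 26.4, 35.6 and 55.6 FPKM. H249 was set apart from the other 3 sham mice, and the gene was not called as deposited (log2 fold change -0.37). Gsta2 and Gsta4 were called lower after the median of ratios (-1.02 and -1.13). Gsta3 was at 24.8, 7.05, 9.13 and 20.2 FPKM in sham and 2.55, 4.13 and 16.2 FPKM in AAN mice. In all but 1 of the AAN mice the level was below every sham mouse, and B614 was within the sham range (log2 fold change -1.45, standard error 0.51, adjusted p = 0.0264). The call of Gsta3 was lost without A483, B630 or B639 and without B607 or H249.

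The mu class was not called but for 1 gene of 8, called higher (all genes 35.8%). Gstm1, its most abundant member, was at 95.8, 56.9, 67.6 and 132 FPKM in sham and 79.3, 123 and 148 FPKM in AAN mice, and Gstm5 at 44.4, 38.3, 50.1 and 46.3 against 41.9, 51.9 and 70.0 FPKM. Both overlapped between the groups (log2 fold changes 0.49 and 0.23), and both went from above 0 to below 0 with the median of ratios (-0.27 and -0.53). Gstm6 was at 0.323, 0.279, 0.314 and 0.358 FPKM in sham and 1.5, 2.33 and 3.41 FPKM in AAN mice. The lowest AAN mouse, B614, was still several times above every sham mouse (log2 fold change 2.59, standard error 0.23, adjusted p = 1.98e-06), and the call held on both scales and with each mouse left out. Gstm6 lies beside Gstm1 to Gstm5 and Gstm7 on chromosome 3, and only 1.10% of its windows are shared with another gene. The other 5 genes of the class (Gstm2, Gstm3, Gstm4, Gstm7 and the processed pseudogene Gstm2-ps1) had log2 fold changes of 0.10 to 0.55 as deposited, and of -0.66 to -0.19 after the median of ratios. The ratio of Gstm6 to Gstm1 was 0.00270 to 0.00491 in sham and 0.0130 to 0.0311 in AAN mice. Gstm6 alone already separated the groups, and the ratio carries no test.

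In the pi, theta, omega and kappa classes 1 of 9 tested genes was called higher and 1 lower (all genes 35.8% and 3.43%). Gstp1, long known as a marker of dedifferentiated and tumour cells in other tissues, was at 162, 107, 135 and 148 FPKM in sham and 92.1, 111 and 119 FPKM in AAN mice, and Gstt2, a theta class enzyme, at 99.3, 135, 129 and 126 against 75.7, 91.2 and 107 FPKM. Neither was called (log2 fold changes -0.34 and -0.42), and both were called lower after the median of ratios (-1.1 and -1.18). Gstp1 shares 25.1% of its windows with Gstp2, and the sum of the 2 was 110.3 to 164 against 93.7 to 121 FPKM. Their neighbour Gstp3 (chromosome 19, 4057477 to 4059569, minus strand, GRCm38) was at 0, 0.0640, 0.0616 and 0.246 FPKM in sham and 1.42, 4.12 and 8.02 FPKM in AAN mice. The sham values lie at or under what 3 fragments give (0.242 to 0.316 FPKM, for counting error only), and all AAN mice lie above. The fitted value (log2 fold change 4.52, standard error 0.44, adjusted p = 4.39e-06) depends on the pseudocount, from 2.20 with 1 to 6.00 with 0.01, and was called with each. None of the windows of Gstp3 is shared with another gene. Gstk1, the kappa class enzyme of mitochondria and peroxisomes, was at 27.5, 27.7, 30.2 and 31.5 against 8.49, 10.4 and 14.1 FPKM. The groups were far apart and the spread within each was small (log2 fold change -1.47, standard error 0.16, adjusted p = 1.20e-05). Gsto1, an omega class enzyme, was above the sham range in every AAN mouse and under 2-fold (log2 fold change 0.90, standard error 0.22, adjusted p = 0.00409), a limit it passed without B614 or without B630. The other 4 tested genes (Gsto2, Gstp2, Gstt1 and Gstt3) were not called as deposited, at log2 fold changes of -0.30 to 0.08, and of these Gstp2 was called lower after the median of ratios (-1.04).

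The microsomal transferases went 3 ways. Mgst1, abundant in most tissues, was at 12, 9.74, 12.4 and 18.7 FPKM in sham and 19.2, 24.5 and 27.2 FPKM in AAN mice, above the sham range in every AAN mouse but under 2-fold (log2 fold change 0.91, standard error 0.19, adjusted p = 0.00136), a limit it passed without H249. Mgst3 was at 104, 134, 149 and 166 against 67.6, 83.8 and 104 FPKM, with the highest AAN mouse just under the lowest sham mouse, and also under 2-fold (log2 fold change -0.68, standard error 0.18, adjusted p = 0.00600). Mgst2, which can also make leukotriene C4 and overlaps the listed gene Gm37261, was at 0.0543, 0.0120, 0.0578 and 0.0231 FPKM in sham and 0.485, 0.789 and 1.48 FPKM in AAN mice. It was called higher on both scales (log2 fold change 2.74, standard error 0.29, adjusted p = 7.68e-06), from a sham level near 0 at which the pseudocount moves the fitted value from 0.82 to 4.26. With a pseudocount of 1 it was under the 2-fold limit. After the median of ratios Mgst1 was close to 0 (0.15) and Mgst3 was called lower (-1.44).

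**Figure D5:**
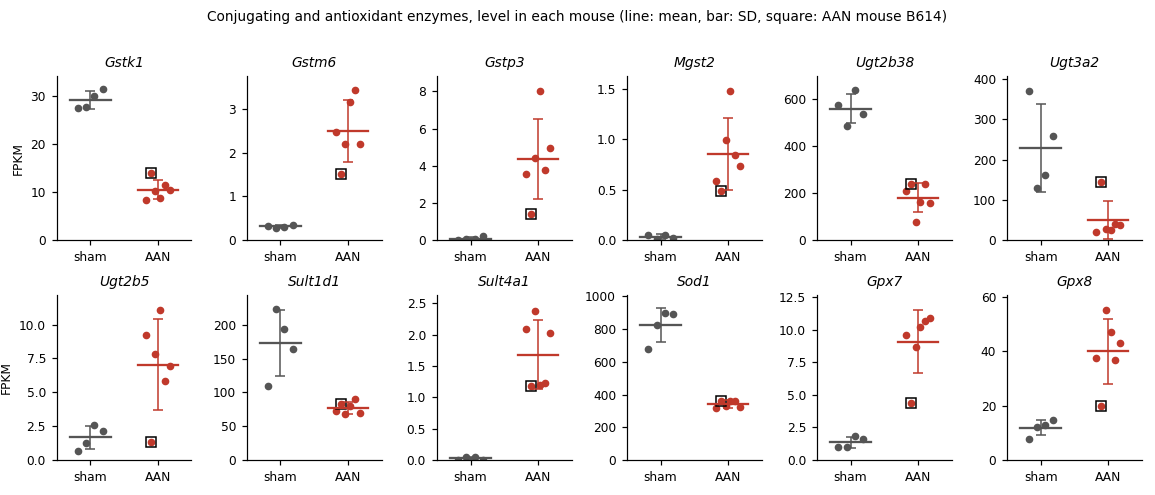
FPKM of 12 conjugating and antioxidant genes in each of the 4 sham and 6 AAN mice, with the mean and SD, and squares around AAN mouse B614. Gstk1, Ugt2b38, Sult1d1 and Sod1 are lower in every AAN mouse, Gstm6, Gstp3, Mgst2, Sult4a1, Gpx7 and Gpx8 higher in every AAN mouse, and Ugt3a2 and Ugt2b5 overlap through B614.

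Of the 17 tested UDP-glucuronosyltransferases, 3 were called higher and 7 lower (all genes 35.8% and 3.43%). After the median of ratios 0 and 9 were called (all genes 19.0% and 10.5%). Ugt1a5 among the higher and Ugt1a1, Ugt1a7c and Ugt1a10 among the lower calls belong to 1 locus, treated below, and are not independent. Ugt2b38, the most abundant UGT, was at 575, 487, 637 and 538 FPKM in sham and 78.0, 185 and 240.4 FPKM in AAN mice. No AAN mouse came near the sham range (log2 fold change -1.71, standard error 0.29, adjusted p = 3.47e-04). Its neighbour on chromosome 5, Ugt2b37, was at 89.6, 50.3, 85.5 and 130.2 against 41.0, 102 and 139 FPKM, with overlap, and was not called (log2 fold change 0.00, standard error 0.40, adjusted p = 0.994). Ugt2b37 made up 6.91 to 12.2% of the summed UGT level in sham and 6.94 to 35.0% in AAN mice, where B614 was within the sham range and the other 5 were above it. Ugt2b5 was at 0.707, 1.29, 2.62 and 2.12 FPKM in sham and 1.3, 7.38 and 11 FPKM in AAN mice. 5 of the 6 AAN mice were above every sham mouse and B614 was among the sham mice (log2 fold change 1.90, standard error 0.53, adjusted p = 0.00887). Ugt2b5 shares 24.7% of its windows with Ugt2b38, which was lower in the same mice. Ugt2b34 was at 4.62, 2.48, 4.77 and 5.46 against 5.45, 9.01 and 13.9 FPKM, with the lowest AAN mouse just within the sham range (log2 fold change 1.07, standard error 0.30, adjusted p = 0.00804). Without B614 or B666, or without B634, it was under the 2-fold limit, and neither Ugt2b5 nor Ugt2b34 was called after the median of ratios (1.17 and 0.32).

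The UGT3 genes, which use N-acetylglucosamine or glucose in place of glucuronic acid, were lower. Ugt3a2 was at 369.6, 129, 161 and 259 FPKM in sham and 21, 33.4 and 145 FPKM in AAN mice, and Ugt3a1 at 44.9, 4.20, 7.16 and 27.3 against 0.448, 0.699 and 8.78 FPKM. In both genes 5 AAN mice lay below every sham mouse and B614 lay within the sham range. Both were called (log2 fold change -2.44, standard error 0.49, adjusted p = 0.00113 for Ugt3a2, and log2 fold change -3.54, standard error 0.82, adjusted p = 0.00293 for Ugt3a1), and both calls held with any mouse left out. Ugt8a, which makes galactosylceramide, was also called lower (-1.80), with means of 7.68 ± 3.31 FPKM in sham (SD, n = 4) and 2.18 ± 1.25 in AAN mice (SD, n = 6), and Ugt2a3, a scarce UGT2 form, was not called (0.37).

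The 9 Ugt1a genes are alternative first exons of 1 locus on chromosome 1 that join common exons. Of these, 3 have the same annotated start and end in all 9 genes (chr1:88215044-88215175, chr1:88215795-88215882 and chr1:88216138-88216357, GRCm38). A common exon whose annotated end differs between the genes is not among the 3. In all, 50.4 to 77.4% of their windows are shared with one another. The split of fragments among them is therefore uncertain, and their sum is the firmer value: 199, 44.6, 68.5 and 97.7 FPKM in sham and 14.1, 29.4 and 137 FPKM in AAN mice, where B614 (137 FPKM) and B666 (58.5 FPKM) were within the sham range and the other 4 below it. Singly, Ugt1a1, the bilirubin transferase, was at 64.7, 7.55, 6.20 and 3.44 FPKM in sham and 0, 0.143 and 12.7 FPKM in AAN mice. The sham mouse B607 was far above the rest, the groups overlapped (log2 fold change -3.95, standard error 1.42, adjusted p = 0.0303), and the call was lost without any of 4 AAN mice (A483, B630, B639 and B642) or of 2 sham mice (B607 and B634). Ugt1a5 was at 0, 0, 6.92 and 1.62 against 0.748, 6.64 and 41.3 FPKM. Listed at 0 in 2 sham mice and wide in AAN mice, it was called higher (log2 fold change 3.35, standard error 1.32, adjusted p = 0.0445) only with A483, B614, B639, B666, B607 and B634 all in the fit, and not after the median of ratios (2.84). Ugt1a7c (-1.96) was called lower and lost the call without A483, B630, B607 or H249. Ugt1a10 (-1.38) was called lower only with A483, B630, B639, B642, B634, B636 and H249 all in the fit. The other 5 Ugt1a genes (Ugt1a2, Ugt1a6a, Ugt1a6b, Ugt1a8 and Ugt1a9) were not called as deposited, at log2 fold changes of -1.55 (Ugt1a6b) to 0.74 (Ugt1a9), and Ugt1a6a and Ugt1a6b were called lower after the median of ratios (-1.49 and -2.24).

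The upstream windows were also searched for elements of HNF1 and HNF4. HNF1, a homeodomain factor of proximal tubule and liver, binds a palindrome, of which 1 arm of 10 bases with 1 free base was searched on both strands of the same upstream windows. These letters were found in 6 of 72 members (8.33%), against 0.440% of 27025 genes, and in 3 of 14 members called lower, 0 of 12 called higher, 1 of 38 not called and 2 of 8 not tested. CAAAGTCCA, an element of HNF4, a nuclear receptor of liver and proximal tubule, was in 0 of 72 members and 0.451% of all genes. The 4 HNF1 stretches of tested members are shown with the match in capitals, for Sult1d1 (chr5:87569051-87569110, minus strand, 79 bases before the start), Ugt1a1 (chr1:88211889-88211948, plus strand, 45 bases), Ugt1a10 (chr1:88055311-88055370, plus strand, 75 bases) and Ugt1a9 (chr1:88070659-88070718, plus strand, 95 bases).
Sult1d1: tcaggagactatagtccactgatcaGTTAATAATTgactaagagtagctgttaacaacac
Ugt1a1: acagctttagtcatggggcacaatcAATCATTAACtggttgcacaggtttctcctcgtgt
Ugt1a10: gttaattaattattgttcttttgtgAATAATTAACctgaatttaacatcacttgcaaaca
Ugt1a9: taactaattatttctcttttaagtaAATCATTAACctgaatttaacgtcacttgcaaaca
Ugt1a10 and Ugt1a9 are paralogs whose stretches are alike, so these are not independent matches, and the same holds for Sult2a3 and Sult2a4, the 2 members with a match that were not tested. Sult1d1, Ugt1a1 and Ugt1a10 were called lower, and Ugt1a9, listed near 0 in most mice, was not called. Ugt1a1, Ugt1a10 and Ugt1a9 belong to 1 locus with an uncertain split of fragments. The calls of Ugt1a1 and Ugt1a10 were lost without single mice, as given above, so the counts by call are no evidence of a link.

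Of the 6 tested sulfotransferases, 3 were called higher and 1 lower (all genes 35.8% and 3.43%). After the median of ratios 2 and 1 were called (all genes 19.0% and 10.5%). Sult1d1, the most abundant, which sulfates catecholamines and other small phenols, was at 109.7, 224, 194 and 163 FPKM in sham and 68.3, 76.5 and 91.0 FPKM in AAN mice. All AAN mice lay below all sham mice, of which B607 was the lowest (log2 fold change -1.12, standard error 0.20, adjusted p = 5.13e-04); without B634 the change was just under 2-fold. Sult1c2 was at 45.8, 33.6, 43.5 and 117 against 36.3, 47.9 and 91.8 FPKM. H249 and B666 stood above the others of their groups, and the groups overlapped (log2 fold change -0.08). Sult1b1, a scarce form, was not called either (-0.34). Sult2b1, which sulfates cholesterol and pregnenolone, was at 0.0197, 0.174, 0.146 and 0.0836 FPKM in sham and 0.505, 1.51 and 2.42 FPKM in AAN mice, and Sult4a1, a brain form with no well-established substrate, at 0, 0.0530, 0.0510 and 0 against 1.18, 1.63 and 2.38 FPKM. Every AAN mouse was above every sham mouse in both (log2 fold change 2.99, standard error 0.39, adjusted p = 5.08e-05 for Sult2b1, and log2 fold change 3.80, standard error 0.27, adjusted p = 5.06e-07 for Sult4a1). Sham values of Sult4a1 lie under the level of 3 fragments (0.0719 to 0.0940 FPKM), and the fitted value ranged from 1.36 to 6.02 with the pseudocount. Sult2b1 overlaps the listed gene Lmtk3. Sult5a1 was the remaining higher call (1.25), and it was not called after the median of ratios or without B607. Of 9 listed genes of cosubstrate supply, breakdown of the spent sulfate donor or glucuronide cleavage, 1 was called higher and 2 lower (0 and 4 after the median of ratios), against the same shares of all genes. Papss2, the synthase of the sulfate donor, fell from 62.8 ± 20.7 to 25 ± 10.1 FPKM (-1.34), Slc26a1, a sulfate carrier, fell most (-1.39), Bpnt1, a phosphatase of the spent donor, was called lower only after the median of ratios (-0.95 as deposited, -1.71 after it), and Gusb, the glucuronidase, was called higher only as deposited (1.58).

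Of the 5 tested glutathione peroxidases, 2 were called higher and 1 lower (all genes 35.8% and 3.43%). After the median of ratios 1 and 2 were called (all genes 19.0% and 10.5%). Gpx3, the most abundant, the secreted peroxidase that the proximal tubule releases into plasma, was at 13618, 1469, 17891 and 15141 FPKM in sham and 693, 4860.5 and 11819 FPKM in AAN mice. It varied by over an order of magnitude within each group, with B634 the lowest sham mouse, and was not called (log2 fold change -1.41, standard error 0.95, adjusted p = 0.217). Its share of the summed level of all members was 24.9 to 77.6% in sham and 21.3 to 78.1% in AAN mice. Gpx1, the cytosolic form, was at 199.5, 409, 548 and 692 against 88.0, 176 and 620.0 FPKM, with B642 far above the other AAN mice and the groups overlapping (log2 fold change -1.1, standard error 0.51, adjusted p = 0.0792); it was called lower without B642, without B607 and after the median of ratios (-1.86). Gpx6 was at 13.7, 7.21, 6.04 and 19.7 FPKM in sham and 1.43, 2.85 and 16.0 FPKM in AAN mice. 5 of the 6 AAN mice were below every sham mouse and B614 was within the sham range (log2 fold change -1.51, standard error 0.56, adjusted p = 0.0354), and the call was lost without any of A483, B639, B642, B666, B607 or H249. Gpx7 and Gpx8, the peroxidases of the endoplasmic reticulum that serve protein folding, were higher. Gpx7 was at 1.02, 1.01, 1.84 and 1.61 against 4.40, 9.91 and 10.9 FPKM, and Gpx8 at 7.87, 12.2, 13.0 and 14.6 against 19.9, 40.4 and 55.3 FPKM. In both, B614 was the lowest AAN mouse and yet above all sham mice (log2 fold change 2.63, standard error 0.27, adjusted p = 7.87e-06 for Gpx7, and log2 fold change 1.71, standard error 0.27, adjusted p = 2.29e-04 for Gpx8). After the median of ratios Gpx7 was still called (1.89) and Gpx8 came just under 2-fold (0.95). The ratio of Gpx8 to Gpx1 was 0.0210 to 0.0394 in sham and 0.0593 to 0.489 in AAN mice, without overlap. Gpx8 alone already separated the groups, and the ratio carries no test.

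Of the 10 tested peroxiredoxins, thioredoxin reductases and sulfiredoxin, 1 was called lower and 0 higher (all genes 3.43% and 35.8%). After the median of ratios 3 were called lower (all genes 10.5%), and as deposited all 10 were below the median of all genes. Prdx5, the form shared by mitochondria, peroxisomes and cytosol, was at 299.6, 370.1, 431 and 377 FPKM in sham and 163, 183 and 199.7 FPKM in AAN mice. All AAN mice were below all sham mice, at a change on the 2-fold limit (log2 fold change -1.01, standard error 0.15, adjusted p = 1.37e-04) that was missed without A483 or B614, or without B636 or H249. It shares 12.3% of its windows with the overlapping gene Trmt112. Prdx1, the main cytosolic form, was at 195, 142, 154 and 187 against 101, 157 and 187 FPKM, which overlapped (log2 fold change -0.20, standard error 0.20, adjusted p = 0.393). Srxn1, sulfiredoxin, which repairs overoxidized peroxiredoxin, averaged 21.1 ± 2.7 FPKM in the sham group (SD, n = 4) and 26.0 ± 4.34 in the AAN group (SD, n = 6) and was not called (0.29), and the ratio of Srxn1 to Prdx1 was 0.125, 0.126, 0.132 and 0.115 in sham and 0.151, 0.177 and 0.193 in AAN mice. Every AAN mouse had the higher ratio, which was not tested. Prdx3, the mitochondrial peroxiredoxin, went from 124 ± 23.9 to 76.2 ± 21 FPKM, under 2-fold (-0.73), and was called lower after the median of ratios (-1.5). Prdx2 (0.39), Prdx4 (0.48) and Prdx6 (-0.36) were not called as deposited, of which Prdx6 was called lower after the median of ratios (-1.12), and Txnrd1, Txnrd2 and Txnrd3 were not called on either scale (as deposited -0.16, -0.09 and 0.41).

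The 3 superoxide dismutases were lower in every AAN mouse than in any sham mouse, as were 3.25% of all genes. Sod1, the copper-zinc enzyme of the cytosol, was at 678, 826, 898 and 894 FPKM in sham and 315, 346 and 363 FPKM in AAN mice. The 6 AAN mice lay close together, well under the sham range (log2 fold change -1.26, standard error 0.15, adjusted p = 2.29e-05), and the call held with any mouse left out. Sod3, the extracellular form, was at 152, 128, 143 and 161 against 83.0, 94.4 and 127 FPKM, with B642 set above the other AAN mice. It was under 2-fold as deposited (log2 fold change -0.58, standard error 0.16, adjusted p = 0.00679). Sod2, the manganese enzyme of mitochondria, averaged 81.9 ± 7.38 FPKM in the sham group (SD, n = 4) and 43.6 ± 9.45 in the AAN group (SD, n = 6), also just under 2-fold (log2 fold change -0.93, standard error 0.17, adjusted p = 6.99e-04), and passed the limit without B614. It shares 12.8% of its windows with other annotated genes. All 3 were called lower after the median of ratios (-2.02, -1.69 and -1.35). The ratio of Sod1 to Sod2 was 7.73 to 11.5 in sham and 5.93 to 9.83 in AAN mice and overlapped. When all values were set to the same FPKM total, which moved the median of all genes to 1.07, Sod1 missed the 2-fold limit (-0.89).

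Other genes of the same chemistry were given by lists. Of 18 other NRF2 targets and NADPH suppliers, 6 were called higher and 2 lower (median log2 fold change 0.63), and 4 and 6 after the median of ratios. The higher calls are near the share of all genes (35.8% as deposited and 19.0% after the median of ratios), and the median is under the 0.75 of all genes. The ferritin chains Fth1 and Ftl1, the most abundant over the 10 mice, were not called as deposited (-0.46 and -0.51) and were called lower after the median of ratios (-1.23 and -1.27). Ephx1, microsomal epoxide hydrolase, rose most, with means of 13.4 ± 0.764 FPKM in sham (SD, n = 4) and 80.7 ± 12.5 in AAN mice (SD, n = 6; 2.57), and Osgin1 fell most (-2.02). Nqo1, named here after its values were seen because it is a common readout of NRF2, was at 34.6, 31.4, 30.8 and 37.4 FPKM in sham and 12.5, 17.8 and 29.6 FPKM in AAN mice. All AAN mice were below all sham mice, at a change under 2-fold (log2 fold change -0.88, standard error 0.22, adjusted p = 0.00496), and it was called lower after the median of ratios (-1.65). Of 7 tested partners of NRF2, Sqstm1 (-0.43) and Rbx1 (0.36) were the most abundant over the 10 mice and were not called as deposited, with Sqstm1 called lower after the median of ratios (-1.20), and the small MAF protein gene Maff was the 1 called higher (4.16), from 0.493 ± 0.284 to 10.3 ± 3.89 FPKM. Of 16 other thiol and peroxide enzymes, 3 were called higher and 2 lower (all genes 35.8% and 3.43%). After the median of ratios 1 and 8 were called (all genes 19.0% and 10.5%). Catalase (Cat) fell most, from 327 ± 52.3 to 117 ± 39.4 FPKM (-1.53), Msrb3, a methionine sulfoxide reductase, rose most (2.0), and Selenop (-0.19) and Txn1 (0.04), the most abundant over the 10 mice, were not called.

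How far the members varied together across the mice was not measured, and only the place of single mice within their group was counted. AAN mouse B614 had the highest AAN value for 11 of the 15 members called lower (73.3%, and 74.0% of all 588 genes called lower) and the lowest for 9 of the 13 called higher (69.2%, and 51.0% of all 6126). Its proximal tubule marker sum was 2448 FPKM, the highest of the AAN mice, and its macrophage marker sum 619 FPKM, the lowest. Without B614, 11 members were called higher and 15 lower. Among sham mice, B607 and H249 were both above B634 and B636 in 33 of 74 members (44.6%, and 42.6% of all genes), and in 19 (25.7%, and 25.1%) after the median of ratios. These shares are close to those of all genes, save for the 69.2%. The tags of the mice carry letters that the labels do not explain, B in 3 sham and 5 AAN mice, and with the mice of that letter alone 13 members were called higher and 9 lower.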

How the data were processed

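RNA of the kidney cortex of 4 sham and 6 AAN mice was sequenced as 1 library per mouse. Per the submitters' processing notes and the study's methods, the authors mapped the reads with Hisat2 2.0.4 to GRCm38.p4 and computed FPKM with Stringtie 1.3.0; the deposited values are FPKM for 21792 Ensembl genes in every mouse, with no counts, and the annotation release and strand setting are not given in the sources used here. The authors' own test, edgeR, needs counts. Here symbols and exons came from GENCODE M21 (GRCm38), which lacks 142 of the identifiers, and groups came from the labels.

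The 17129 genes that averaged 0.1 FPKM or more over the mice were compared on log2(FPKM + 0.1) with limma 3.58.1 (R 4.3.3; trend, robust, two-sided, Benjamini-Hochberg over all genes tested). The code was run on simulated data with independent noise and as many rises as falls. The simulation had no shift in library make-up, so it does not cover the shift seen in these libraries. A call needed a change of at least 2-fold and an adjusted p up to 0.05, the limits of the study. The fold changes understate those of genes near the pseudocount. Depth was recovered from low values of genes with 1 transcript, of which 94.5 to 96.8% were whole fragments within 0.05; a value of 3 fragments is given as a floor and covers counting error only. Shared windows are 100-base stretches of exon found in another annotated gene.

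Members and lists were chosen with earlier results of these data known. Values per mouse are given for the regulators and, in each other role group, for the 2 members most abundant in sham mice and up to 3 with the largest and 3 with the smallest called change whose mean was at least 1 FPKM in the higher group. These are 37 genes, and Gclm, Gclc, Mgst2, Ugt2b37 and Nqo1, also given per mouse, were added with their values seen. List genes named are the 2 most abundant over the mice and the largest called change either way. Promoter sequences came from RefSeq (GRCm38.p6). The alternatives were pseudocounts of 1 and 0.01, other filters, 3 rescalings, limma without trend or robust, no fold limit, B tags alone, and each mouse left out; median of ratios without B614 was added after seeing the data. Python 3.11.15, numpy 2.4.6, pandas 2.3.3 and matplotlib 3.10.9 were used.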

Additional observations from a re-analysis of the deposited data

Results flagged for a closer look

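Each of the 37 genes chosen by rule for values per mouse was examined for a mouse set apart from its group, by the gap to the nearest mouse over the range of the group (Dixon's 95% limit). In the 74 groups examined 12 such values were found. The limit gives about 1 in 20, or 3.7, by chance for normal values in independent groups. These values are FPKM without a log scale and the groups share the same mice, so no excess over chance is read from the 12. AAN mouse B614 held 5 of the 12. In B614, Gsta3 was at 16.2 FPKM (other AAN mice 2.55 to 6.35), Ugt3a1 at 8.78 FPKM (others 0.448 to 1.34), Ugt3a2 at 145 FPKM (others 21 to 39.9), Gpx6 at 16.0 FPKM (others 1.43 to 4.46) and Gpx7 at 4.40 FPKM (others 8.68 to 10.9). In AAN mouse B642, Gpx1 was at 620 FPKM (others 88.0 to 285) and Sod3 at 127 FPKM (others 83.0 to 98.9). In AAN mouse B666, Sult1c2 was at 91.8 FPKM (others 36.3 to 56.4). Sham mouse H249 had Gsta4 at 79.5 FPKM (other sham mice 38.5 to 41.5) and Sult1c2 at 117 FPKM (others 33.6 to 45.8). Sham mouse B607 had Ugt1a1 at 64.7 FPKM (others 3.44 to 7.55) and Bach1 at 3.90 FPKM (others 2.23 to 2.26).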

How the results depend on the processing

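As deposited, 13 members were called higher and 15 lower. Of members higher, the count moved by more than 1.5 times with a pseudocount of 1 (8), the median of ratios (6), quantile normalization (7) and the median of ratios without B614 (8). Of members lower, it moved with the median of ratios (31), quantile normalization (23), the same FPKM total (8), B tags alone (9) and the median of ratios without B614 (34). Leaving out 1 mouse at a time gave 10 to 14 members called higher and 9 to 15 called lower, with the 9 without A483. By construction, rescaling shifts all genes: the median log2 fold change of all genes, 0.75 as deposited, became 0.06 with the median of ratios, -0.13 with quantile normalization and 1.07 with the same total. No called change of the 37 genes chosen by rule for values per mouse turned its sign under any alternative. Of these genes, 6 lost and 7 gained a call with the median of ratios. No paired analysis was possible because the groups share no replicate numbers. Genes near 0 in sham mice are limited by depth: a floor of 3 fragments lies between 0.242 and 0.316 FPKM for Gstp3.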
